A study of Mus musculus with 15 samples.

Results

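The genes described here encode the cytokines and chemokines of the mouse colon and the receptors that bind them. Members were the genes whose symbols name a chemokine, a chemokine receptor, an interleukin or its receptor, a colony-stimulating factor or its receptor, or a ligand or receptor of the TNF superfamily, to which Ppbp, Tnf and the interferon receptor genes Ifngr1, Ifngr2, Ifnar1 and Ifnar2 were added. The choice used symbols only. Of the 12897 genes with counts in at least 1 of the 3 deposited tables, 82 were members, and 72 of these were in all 3 tables. RNA-seq was performed on distal colons of 3 mice in each of 5 groups. The strain was C57BL/6 (B6), and Irf1-/- mutants lack functional interferon regulatory factor 1 in every cell, a transcription factor induced by interferons. Untreated mice comprised Irf1-/- mutants and 2 sets of B6 wildtype mice, called set 1 and set 2 here, which the labels describe alike. Treated B6 and Irf1-/- mice had received 1 injection of azoxymethane (AOM, an alkylating colon carcinogen, 7 mg/kg, D1) and 1 cycle of 2% dextran sulfate sodium (DSS, which injures the mucosa) given between D8 and D11 as their drink, and were sacrificed at D26. The labels give neither age nor sex.

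Cytokines are secreted or membrane-bound proteins through which immune, epithelial and stromal cells signal to each other over short distances. Chemokines attract leukocytes that carry the matching receptor, interleukins and colony-stimulating factors act on the growth and activation of target cells, and ligands of the TNF superfamily act through receptors that control survival, death and inflammation. In the colon, members such as Il18, Il22ra1 and Il17rc are known for their part in the epithelial barrier. Some CXC chemokines, such as Cxcl5 and Ppbp, which act on Cxcr2, are known for the recruitment of neutrophils to injured mucosa.

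Between 22266607 and 22869853 reads were counted per library, of which the members in all 3 tables took 0.315% to 0.359%. Levels are given as CPM (counts scaled to a common library size, after TMM scaling). All 10 epithelial marker genes that had been listed for the colon were present. Of 12 macrophage and monocyte markers 10 were present, of 8 B cell markers 7, of 10 T cell markers 3, of 8 platelet markers 1 (Pf4, 6.71 to 14 CPM), and of 9 neutrophil and 4 eosinophil markers none had a row in the tables. Irf1 itself stood at 128 to 161 CPM in untreated B6 mice, 79.4 to 117 CPM in untreated mutants, 173 to 227 CPM in treated B6 mice and 100 to 123 CPM in treated mutants, and no mutant reached the lowest B6 mouse; counts per gene do not tell which exons were read. Xist, which is transcribed from the inactive X chromosome of females, was at 6 and 25.2 CPM in 2 of the treated B6 libraries and at 11.6 CPM in 1 treated mutant library, and between 321 and 3729 CPM in the other 12. In treated B6 libraries, genes of high GC content were counted higher, by 0.14 to 0.30 log2 units per 10% of GC content, against -0.13 to 0.03 in the other libraries; this and the treatment of B6 mice cannot be told apart.

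The tables hold genes that reached 5 CPM in 3 libraries of a table, so a member without a row in a table was lower than this or not among the rows used here. Tnf, Cxcl9, Cxcl10, Cxcl11, Ccl5, Cxcl1, Cxcl2, Cxcl3, Il12a and Il27 had no row. The table of treated and untreated B6 mice held 77 members, that of untreated B6 set 2 and untreated mutants 74, and that of treated and untreated mutants 78. A few members had entered a table through 1 of its groups alone and therefore had to differ there, namely Ccl8 in the B6 table, Cxcr5 and Tnfrsf11b in the mutant table, and Tnfrsf11b in the steady-state table.

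**Figure D1:**
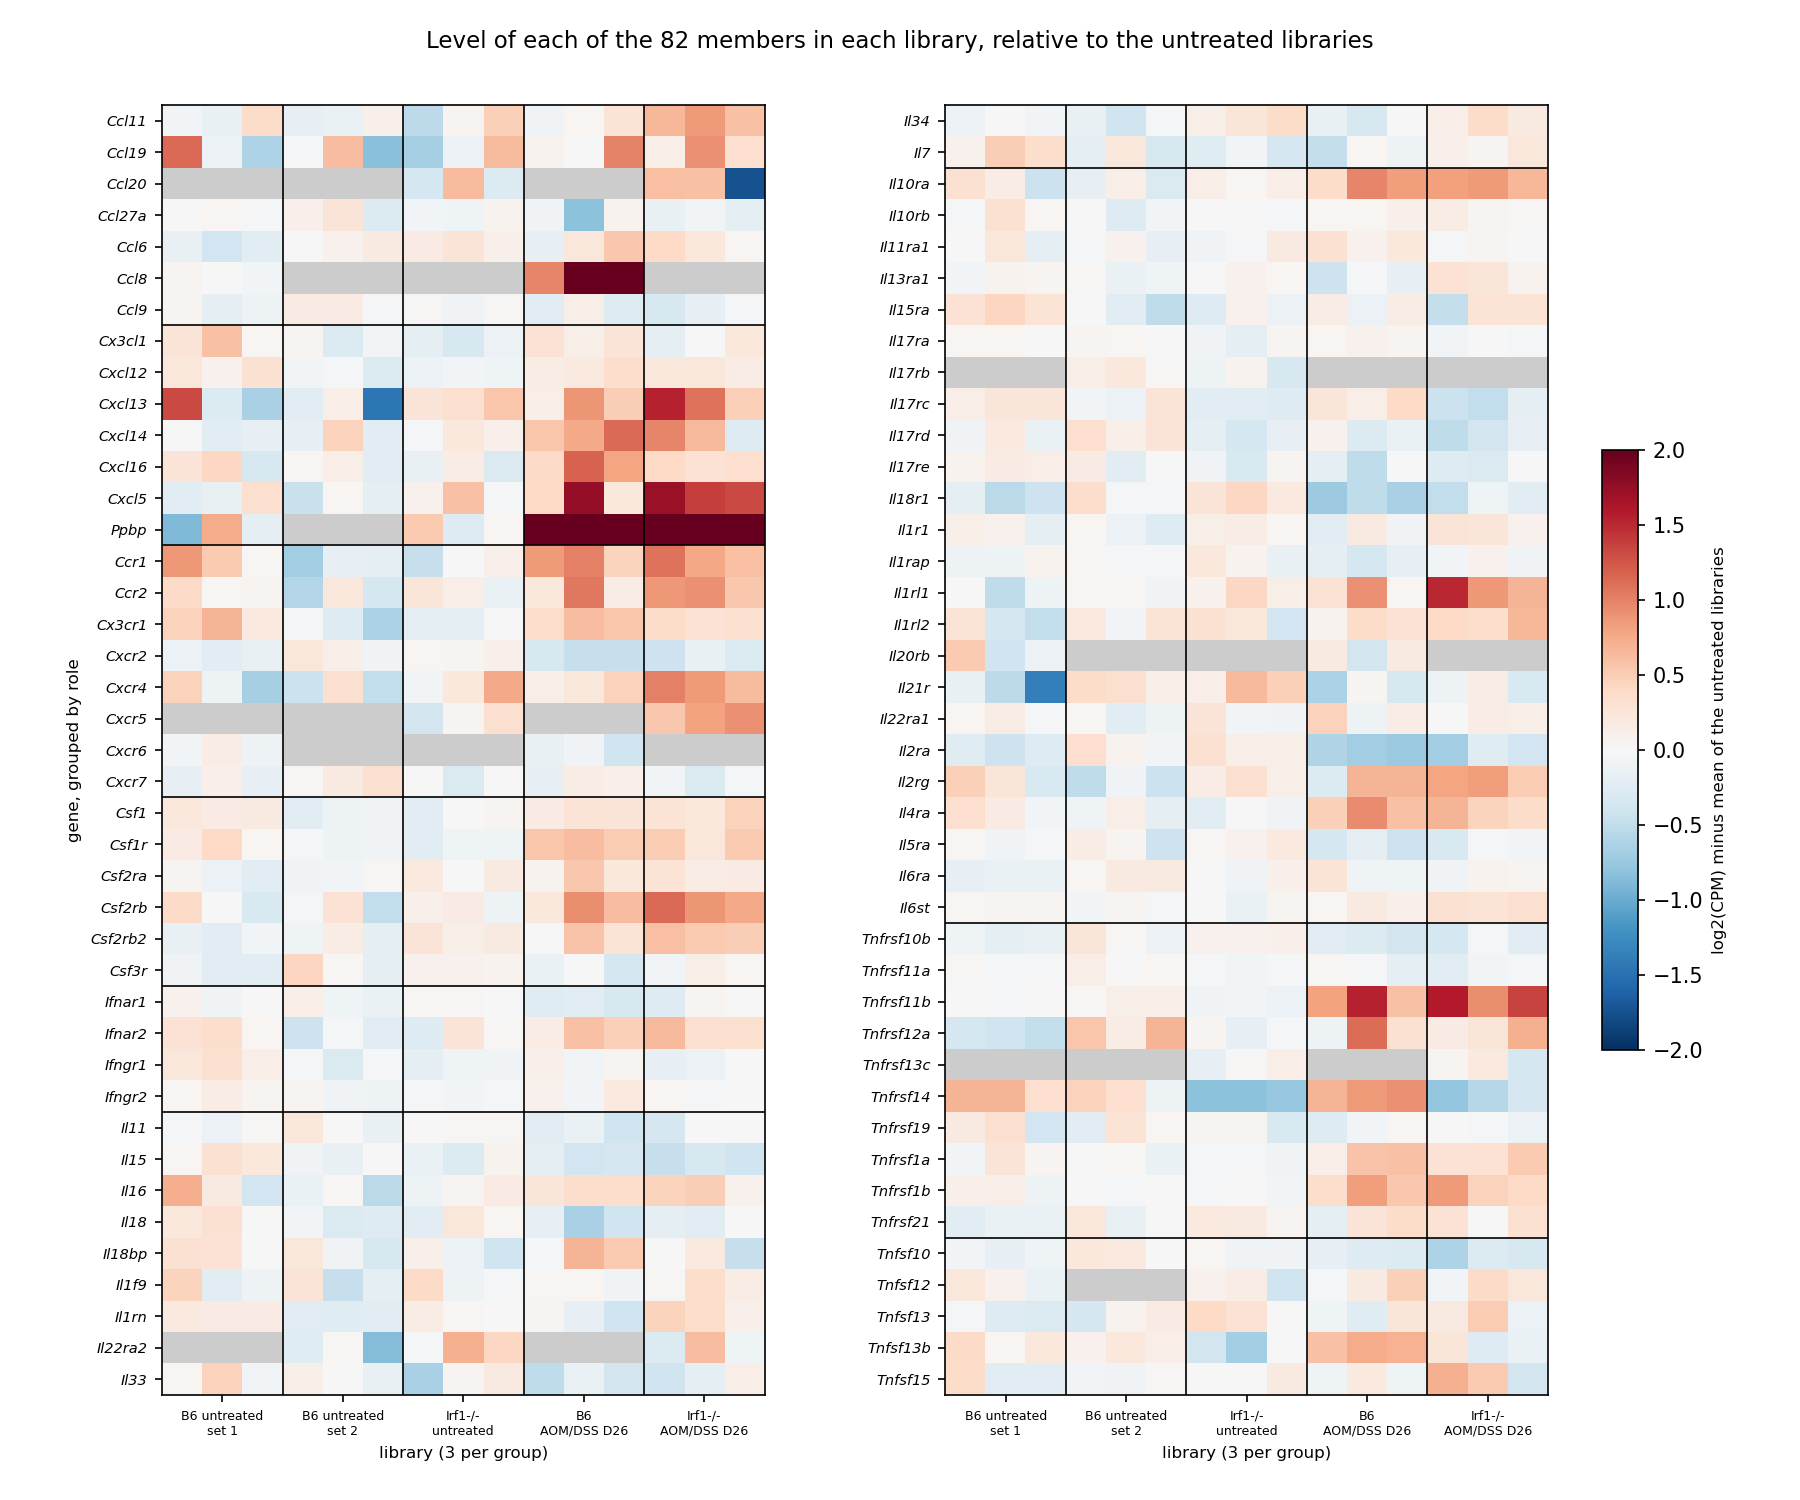
Level of each of the 82 members (rows, grouped by role, with lines between roles) in each of the 15 libraries (columns), as log2(CPM) minus the mean over the untreated libraries that hold the gene; colours end at 2 and -2, and grey marks members without a row in a table. Ppbp, Cxcl5 and Tnfrsf11b are higher in the treated groups, and Tnfrsf14 is lower in both mutant groups.

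Receptors of interferons and a few epithelial cytokines had the highest levels. Per kilobase of exon and averaged over all libraries, Ifngr1 (the ligand-binding chain of the interferon gamma receptor) stood at 136 CPM per kb, the chemokine Ccl6 at 129, the epithelial cytokine Il18 at 108, and Ifnar1 (a chain of the type I interferon receptor) at 74.7 CPM per kb. Ifngr2, the signalling chain of the interferon gamma receptor, stood at 44.5 and Ifnar2 at 5.12 CPM per kb. Il13ra1, Tnfrsf10b (the receptor of TRAIL), Il22ra1 (the epithelial receptor chain for interleukin 22), Tnfrsf11a (RANK) and Il17rc followed at 37.8 to 44.3 CPM per kb. The lowest members were Il1rl1 (the interleukin 33 receptor, 1.39 CPM per kb), Il6ra (1.46) and Il1rl2 (1.5). Ifngr1 was at 339 ± 22.2 CPM (SD, n = 3) in B6 set 1, 267 ± 27.5 in set 2, 267 ± 12.3 in untreated mutants, 295 ± 17.2 in treated B6 mice and 270 ± 15.3 in treated mutants. None of the 4 interferon receptor genes reached an adjusted p under 0.05 in edgeR's quasi-likelihood test of any comparison with the controls used throughout. With other B6 controls, Ifngr1 was lower in untreated mutants than in set 1 (log2 FC -0.35, adjusted p = 0.0162), Ifnar2 was higher in treated B6 mice than in set 2 (0.65, adjusted p = 0.0265) or both sets (0.42, adjusted p = 0.0349), and Ifnar1 was lower in them than in both sets (-0.25, adjusted p = 0.0404). In DESeq2, Ifnar1 was lower in treated B6 mice than in set 1 (adjusted p = 0.0205) and Ifngr1 was lower in set 2 than in set 1 (adjusted p = 0.0158).

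To see which members depended on genotype at steady state, untreated mutants were compared with untreated B6 mice of set 2. 1 member was downregulated and none upregulated at a call, meaning a fold change (FC) of 1.5 or more at an adjusted p below 0.01 (edgeR's quasi-likelihood test, Benjamini-Hochberg adjustment over all genes tested), where 0.318% and 0.0874% of all 12588 genes were. Tnfrsf14 encodes the herpesvirus entry mediator, a receptor of the TNF receptor superfamily on lymphocytes, myeloid cells and epithelium that binds LIGHT and BTLA. It stood at 18.1, 16.6 and 12.3 CPM in the B6 mice of set 2 and at 7.47, 7.47 and 7.81 CPM in the mutants. Every mutant was below every B6 mouse. The log2 FC was -1.04 (SE 0.15, adjusted p = 0.00882). In set 1, Tnfrsf14 was at 21.1, 21.1 and 16.6 CPM, and with that set as controls the log2 FC was -1.37 (SE 0.13, adjusted p = 0.00019). The call at 0.01 held without replicate 3 of set 2 and was lost without each of the other 5 mice, with adjusted p between 0.00367 and 0.0471 over the 6 fits. It was 0.0145 with a covariate of log2 Xist, an alternative added once the data had been seen, and 0.0117 with the GC correction. Over all 74 members tested, 43 had a positive and 31 a negative log2 FC, against 50.8% and 49.2% of all genes, and 6 were higher and 8 lower without overlap of the groups, against 7.83% and 7.61%. Tnfrsf11b is among the 31 and the 8, although its direction was fixed by the minimum of the table.

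The same gene separated the genotypes after treatment. Treated B6 mice held 21.2, 23.8 and 24.8 CPM of Tnfrsf14 and treated mutants 7.67, 8.90 and 10.5 CPM. The log2 FC between them was -1.39 (SE 0.14, adjusted p = 0.00275), and it was the only member downregulated in this comparison, in which 0.312% of 12483 genes were downregulated and 0.0721% upregulated (no member). Leaving out each mouse in turn gave adjusted p between 0.00534 and 0.0235, with the call at 0.01 kept only without replicate 1 of the treated B6 mice or replicate 3 of the treated mutants. Treatment moved Tnfrsf14 by a log2 FC of 0.25 (SE 0.12) in B6 mice and 0.25 (SE 0.15) in mutants, neither with an adjusted p under 0.05 (0.58 in B6 mice with set 2 as controls, adjusted p = 0.0356), and the difference of these responses was 0.0033 (SE 0.18). The 2 genotype comparisons share no library, and all 6 mutants were below all 9 B6 mice.

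**Figure D2:**
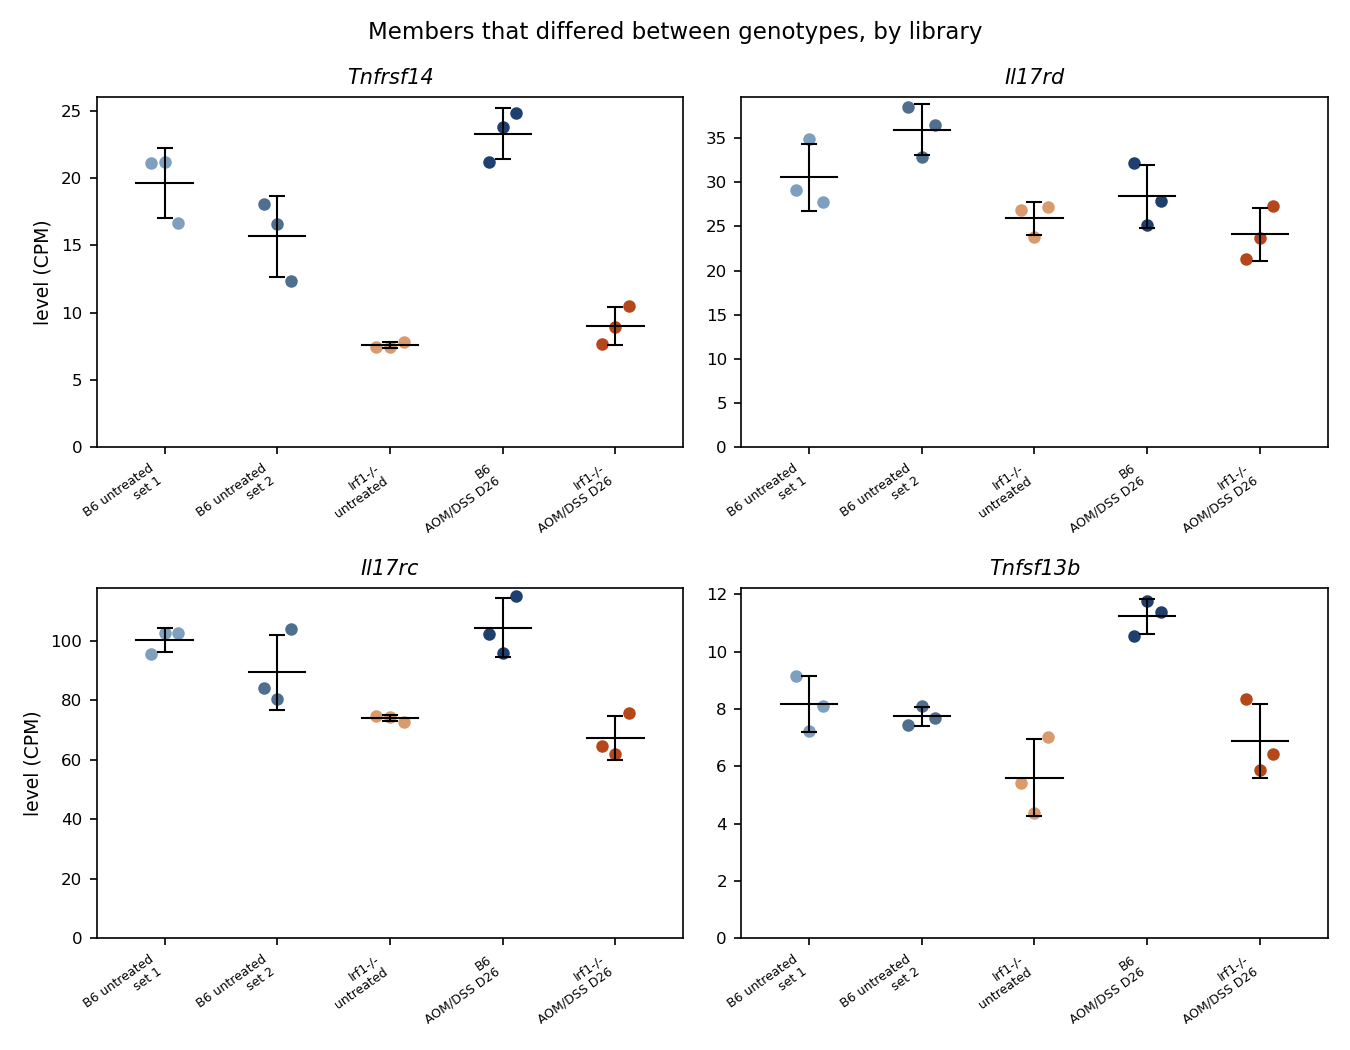
Levels (CPM, linear axis from 0) of Tnfrsf14, Il17rd, Il17rc and Tnfsf13b by library in the 5 groups; points are mice, the line is the mean and the bars are the SD of 3 mice. Tnfrsf14 lies at or below 10.5 CPM in the 6 mutants and at or above 12.3 CPM in the 9 B6 mice.

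Il17rd and Il17rc, both of the interleukin 17 receptor family, passed an adjusted p of 0.05 between genotypes in edgeR's quasi-likelihood test without being called by it. DESeq2 called Il17rc in treated mice (log2 FC -0.64, adjusted p = 5.15e-05), where it called 2.16% of all genes in either direction. Il17rd, a member of this family that also modulates growth factor signalling, was at 38.5, 32.9 and 36.5 CPM in set 2 and 26.8, 23.8 and 27.2 CPM in untreated mutants. These groups did not overlap, and the log2 FC was -0.47 (SE 0.09, adjusted p = 0.0337, where 0.81% of all genes were lower and 0.437% higher at this level). The value depended on the control mice: set 1 held 29.1, 34.8 and 27.8 CPM, and against it the log2 FC was -0.24 (SE 0.10, adjusted p = 0.208). After treatment Il17rd was at 28.4 ± 3.53 CPM in B6 mice and 24.1 ± 3.02 CPM in mutants (log2 FC -0.25, SE 0.13, adjusted p = 0.289).

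Il17rc encodes the chain that pairs with Il17ra to bind interleukins 17A and 17F and is abundant on epithelium. Treated B6 mice held 102, 95.8 and 115 CPM and treated mutants 64.7, 61.8 and 75.7 CPM. Every treated mutant was below every treated B6 mouse, as for 13% of all genes (14.5% were higher without overlap). The log2 FC was -0.65 (SE 0.11, adjusted p = 0.0241, where 1.11% of all genes were lower and 0.937% higher at this level). At steady state the mutants held 74.8, 74.4 and 72.7 CPM, set 2 held 83.9, 80.4 and 104 CPM and set 1 held 95.4, 103 and 102 CPM. The log2 FC was -0.27 (SE 0.09, adjusted p = 0.287) against set 2 and -0.44 (adjusted p = 0.002) against set 1. In treated mice it was -0.49 (adjusted p = 0.0458) with the GC correction. All 10 epithelial markers were also lower in treated mutants than in treated B6 mice (median log2 FC -0.26, none past an adjusted p of 0.05). At steady state 5 were higher and 5 lower in mutants than in set 2 (median -0.02), and Muc2 passed 0.05 as higher. Their summed level was 13144 ± 68.7 CPM in untreated mutants, 12050 ± 1241 CPM in set 2 and 11416 ± 234 CPM in set 1. The part of these markers in the level of Il17rc was not tested. Il17ra, the shared chain, was at 28.8 to 31.4 CPM in the means of all 5 groups, and Il17re at 15.8 to 20 CPM.

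Tnfsf13b encodes BAFF, a survival factor of B cells. Treated B6 mice held 10.5, 11.8 and 11.4 CPM and treated mutants 8.33, 5.87 and 6.42 CPM. The groups did not overlap (log2 FC -0.72, SE 0.17, adjusted p = 0.0644 in edgeR's quasi-likelihood test). Among all genes, 13% were lower and 14.5% higher without overlap in this comparison, beside 6.76% and 12.2% of members. DESeq2 called Tnfsf13b in treated mice (log2 FC -0.71, adjusted p = 0.00876), beside 2.16% of all genes in either direction. At steady state set 2 held 7.44, 8.09 and 7.68 CPM and the mutants 5.42, 4.36 and 7.02 CPM (log2 FC -0.47, SE 0.18, adjusted p = 0.383). Over the B cell markers, whose summed level was 81 to 103 CPM in untreated and 95 to 125 CPM in treated mutants and 67 to 95 CPM in treated B6 mice, the direction was the opposite one, with 7 of 7 higher in treated mutants than in treated B6 mice and in untreated mutants than in set 2 (30 to 83 CPM), and Ms4a1 past an adjusted p of 0.05 in treated mice. Set 1 held 40 to 159 CPM of these markers, a range that includes that of the untreated mutants.

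At unadjusted p under 0.05, 6 members were higher and 7 lower in untreated mutants than in set 2 (8.11% and 9.46% of 74, against 5.2% and 5.23% of all genes). Those higher with the smallest p were Il1rn, the antagonist of the interleukin 1 receptor (log2 FC 0.29, adjusted p = 0.072), Il2rg, the common gamma chain of lymphocyte cytokine receptors (0.53, adjusted p = 0.192), and Il34, a ligand of Csf1r (0.43, adjusted p = 0.212). Tnfrsf12a, the receptor of TWEAK, was lower (-0.53, adjusted p = 0.177). Against set 1, Il1rn and Tnfrsf12a had the opposite sign (-0.12 and 0.36). In treated mice, 5 members were higher and 5 lower in mutants at this level (6.76% each, against 11.4% and 10.6% of all genes), and 44 of 74 had a positive log2 FC, against 48.5% of all genes. The higher ones with the smallest p were the eosinophil chemokine Ccl11 (log2 FC 0.60, adjusted p = 0.0823), Cxcr4, the receptor of Cxcl12 (0.55, adjusted p = 0.103), and Il1rn (0.45, adjusted p = 0.109).

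Of 10 members listed as dependent on Irf1 or induced by interferons, 4 had rows. Il15, which sustains natural killer and memory T cells, was at 16.8 ± 0.931 CPM in set 2 and 16.4 ± 1.91 CPM in untreated mutants. Its receptor chain Il15ra was at 6.31 ± 1.11 and 6.91 ± 0.815 CPM, Il7 (a growth factor of lymphocytes) at 8.30 ± 1.70 and 7.60 ± 0.735 CPM, and Il18bp, the soluble inhibitor of interleukin 18, at 7.64 ± 1.48 and 7.19 ± 1.22 CPM. The log2 FC of these 4 genes ranged from -0.13 to 0.13 with standard errors of 0.11 to 0.18 against set 2. The values depended on the control mice. In set 1 the means were 20.1 CPM for Il15, 9.28 for Il15ra, 11 for Il7 and 9.02 for Il18bp, and against that set all 4 had a negative log2 FC, from -0.53 (Il7, adjusted p = 0.0633) to -0.30 (Il15, adjusted p = 0.165), none past an adjusted p of 0.05. In treated mice Il18bp was at 7.69, 12.5 and 11.2 CPM in B6 and 7.76, 8.94 and 5.71 CPM in mutants, groups that overlapped (log2 FC -0.50, SE 0.23, adjusted p = 0.236).

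Promoters of Tnfrsf14, Il17rc and Tnfsf13b, the members with the smallest p between treated mutants and treated B6 mice, are printed because Irf1 binds DNA directly. That of Il17rd, which passed an adjusted p of 0.05 at steady state, is not printed. For Tnfsf13b only the window with a match is printed. The letters searched on both strands were GAAA, 2 bases of any kind and GAAA again, a core of the element bound by interferon regulatory factors. Sequences were RefSeq promoter windows (build GRCm38.p6, 250 bases before to 50 after each start; the counts were made on mm9), which were at hand for 66 members and not for the other 16. The letters occurred in 3.44% of all 32851 windows and 3.99% of 27025 gene symbols, and in 6 of the 66 members (9.09%), namely Tnfrsf14, Tnfsf13b, Tnfrsf1b, Ccl19, Cxcl14 and Il1rap. In Tnfrsf14 they lie on the opposite strand, 64 to 55 bases before the start, and in Tnfsf13b on the gene's own strand, 16 to 7 bases before the second of its starts. The Il17rc window does not hold these letters. The 250 bases before each start follow, 5′ to 3′ on the strand of the gene, with the match in capitals, for Tnfrsf14 (chr4:154928078-154928327, minus strand), Tnfsf13b (chr8:10006383-10006632, plus strand) and Il17rc (chr6:113471205-113471454, plus strand).
Tnfrsf14: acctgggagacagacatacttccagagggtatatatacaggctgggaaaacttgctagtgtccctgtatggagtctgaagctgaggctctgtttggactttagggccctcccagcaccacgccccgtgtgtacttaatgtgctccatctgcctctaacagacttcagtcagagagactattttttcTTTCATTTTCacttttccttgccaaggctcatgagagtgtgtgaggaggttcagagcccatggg
Tnfsf13b: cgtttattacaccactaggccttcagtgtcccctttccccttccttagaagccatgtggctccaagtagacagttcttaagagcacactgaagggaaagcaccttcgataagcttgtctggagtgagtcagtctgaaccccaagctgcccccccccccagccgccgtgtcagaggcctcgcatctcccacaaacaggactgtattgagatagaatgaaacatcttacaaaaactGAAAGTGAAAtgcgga
Il17rc: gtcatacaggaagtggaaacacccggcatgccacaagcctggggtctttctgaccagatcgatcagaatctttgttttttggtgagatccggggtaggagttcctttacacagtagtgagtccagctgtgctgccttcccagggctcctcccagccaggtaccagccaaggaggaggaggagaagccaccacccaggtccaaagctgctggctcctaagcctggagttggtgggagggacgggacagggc
Of the other members with these letters, Tnfrsf1b was at 34 ± 0.629 CPM in set 2 and 33.4 ± 0.618 CPM in untreated mutants, and Ccl19 at 8.52 ± 4.07 and 8.62 ± 3.93 CPM. A match of letters is a description of the window and does not show binding.

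The response to AOM/DSS was then compared with steady state in each genotype. In mutants 14 of 78 members were higher (17.9%) and 1 was lower (1.28%) after treatment at an adjusted p under 0.05, where 1.5% and 0.875% of all 12692 genes were. Without the members and genes that met the minimum of the table through 1 group alone, 13 of 76 members were higher (17.1%), where 1.38% of 12607 genes were. At the stricter call 1 member was upregulated (Ppbp; 0.205% of all genes) and none downregulated (0.0473%). DESeq2 and the exact test each called 10 members up and 1 down, beside 1.74% and 1.96% of all genes in either direction. At an unadjusted p under 0.05, 29 members were higher and 7 lower, against 10.1% and 8.47% of all genes, and 52 had a positive and 26 a negative log2 FC, against 51.8% and 48.2%. The 14 were chemokines (Ppbp, Cxcl5, Cxcl12), chemokine receptors of myeloid cells (Ccr1, Ccr2, Cx3cr1), receptors of colony-stimulating factors (Csf1r, Csf2rb), interleukin receptors (Il10ra, Il4ra, Il6st) and receptors of the TNF family (Tnfrsf11b, Tnfrsf1a, Tnfrsf1b). The member that fell was Il2ra. The count depended on single mice: it was 11, 7 and 18 without replicate 1, 2 or 3 of the treated mutants, and 0, 1 and 0 without replicate 1, 2 or 3 of the untreated ones. It was 7 with log2 Xist as a covariate and 15 with the GC correction, where 1.4% and 2.43% of all genes passed.

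Among ligands, Ppbp (Cxcl7, a chemokine of platelets and myeloid cells that acts on Cxcr2) showed the widest range. It was at 5.96, 3.47 and 4.24 CPM in untreated and 25.2, 35.9 and 75.8 CPM in treated mutants. All treated mice were above all untreated ones. The log2 FC was 3.33 (SE 0.41, adjusted p = 0.00901), and leaving out each mouse gave adjusted p between 0.00296 and 0.0762, with the call kept only without replicate 1 or replicate 3 of the treated mutants. The platelet marker Pf4 had a log2 FC of 0.45 in the same comparison. In treated over untreated B6 mice of set 1 the log2 FC was -0.14 for Pf4 and 3.11 for Ppbp. The part of platelets in the level of Ppbp was not tested. Cxcl5, a neutrophil attractant secreted by epithelium, was at 7.64, 10.8 and 7.06 CPM in untreated and 23.9, 18.8 and 17.9 CPM in treated mutants (log2 FC 1.25, SE 0.18, adjusted p = 0.0185). Cxcl12, which retains Cxcr4-positive cells in tissue, was at 51 ± 1.06 and 62.5 ± 1.88 CPM (log2 FC 0.30, adjusted p = 0.0417). All 7 CXC and CX3C chemokines tested had a positive log2 FC in mutants, with a median of 0.45 beside 0.01 over all genes. In B6 mice 6 of the 7 had, with a median of 0.68 against set 1. Cxcr2, the receptor of Ppbp and Cxcl5, was at 108, 109 and 113 CPM in untreated and 78.7, 95.3 and 85.6 CPM in treated mutants (log2 FC -0.34, SE 0.08, adjusted p = 0.0595).

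Of the 7 chemokine receptors tested in mutants 5 had a positive log2 FC (median 0.50), and 3 of these rose, as did 2 of the 6 colony-stimulating factors and their receptors. Ccr2, through which inflammatory monocytes leave the blood, was at 14.3, 13.3 and 11 CPM in untreated and 21.9, 22.7 and 17.5 CPM in treated mutants (log2 FC 0.69, SE 0.14, adjusted p = 0.0422). Ccr1, a receptor of several CC chemokines, went from 4.76, 6.54 and 7.02 CPM to 13.8, 11.1 and 9.86 CPM (0.93, SE 0.19, adjusted p = 0.0425). Csf1r, the receptor on which macrophages depend, and Cx3cr1, carried by resident macrophages, had a log2 FC of 0.56 (SE 0.09, adjusted p = 0.0254) and 0.46 (SE 0.09, adjusted p = 0.0447). Csf2rb, the shared signalling chain for GM-CSF, interleukin 3 and interleukin 5, went from 16.4, 17 and 14.2 CPM to 33.5, 28.1 and 26 CPM (0.88, SE 0.12, adjusted p = 0.0162). In none of these 5 did the groups overlap, where 12.2% of all genes were higher without overlap. These 5 were chosen by their p in the same libraries, so the separation adds no support. Cx3cr1 passed 0.05 in 0 of the 6 fits without single mice, Ccr1 and Ccr2 in 1 and Csf1r and Csf2rb in 3. Of the 5 only Csf2rb passed with log2 Xist as a covariate. The other receptors did not pass, with Csf2ra, the GM-CSF receptor chain, at 14.2 ± 1.09 and 14.9 ± 0.733 CPM and Csf3r, the G-CSF receptor, at 29.1 ± 0.257 and 28.2 ± 1.74 CPM. The macrophage and monocyte markers moved with them: their summed level was 369 to 458 CPM in untreated and 557 to 641 CPM in treated mutants, 10 of 10 had a positive log2 FC (median 0.52) and Cd68, Lyz2, C1qb, C1qc and Itgam passed an adjusted p of 0.05. Squamous keratins also moved, from 526 to 858 CPM summed over 9 markers to 745 to 1724 CPM, as did the mast cell proteases Mcpt1 (log2 FC 2.53) and Mcpt2 (2.66). Of 6 listed mast cell markers only these 2 had a row, in the table of treated and untreated mutants. The part of these markers in the levels of the receptors was not tested. In bulk tissue, more cells of a type and more RNA per cell cannot be told apart.

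Il10ra, the receptor chain for the anti-inflammatory interleukin 10, was at 10.3, 9.65 and 10.3 CPM in untreated and 16.6, 17 and 14.9 CPM in treated mutants (log2 FC 0.68, SE 0.11, adjusted p = 0.0226). Il4ra, shared by interleukins 4 and 13, went from 45.4 ± 3.21 to 68.6 ± 8.14 CPM (0.60, SE 0.10, adjusted p = 0.024), and Il6st, the gp130 chain of the interleukin 6 family, from 198 ± 12.8 to 248 ± 3.55 CPM (0.33, SE 0.07, adjusted p = 0.0446). Il2ra, the high-affinity interleukin 2 receptor chain, was at 47.6, 41.9 and 41.7 CPM before and 23.7, 32.6 and 29.4 CPM after treatment, and fell by 0.61 on the log2 scale (SE 0.12, adjusted p = 0.0388). The ranges of untreated and treated mutants were apart for all 4, as they were for 12.2% of all genes in the higher and 13% in the lower direction.

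Of the TNF receptor superfamily, Tnfrsf11b encodes osteoprotegerin, a soluble decoy receptor of RANKL and TRAIL. It was at 4.89, 4.94 and 4.72 CPM in untreated and 15.3, 9.83 and 13.2 CPM in treated mutants (log2 FC 1.40). It had entered this table through the treated mutants alone, so its p-value is no independent support. Tnfrsf1b and Tnfrsf1a, the receptors of TNF, went from 33.4 ± 0.618 to 51.1 ± 8.86 CPM (0.62, SE 0.12, adjusted p = 0.0357) and from 37.5 ± 0.736 to 49.9 ± 4.71 CPM (0.42, SE 0.08, adjusted p = 0.0392).

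**Figure D3:**
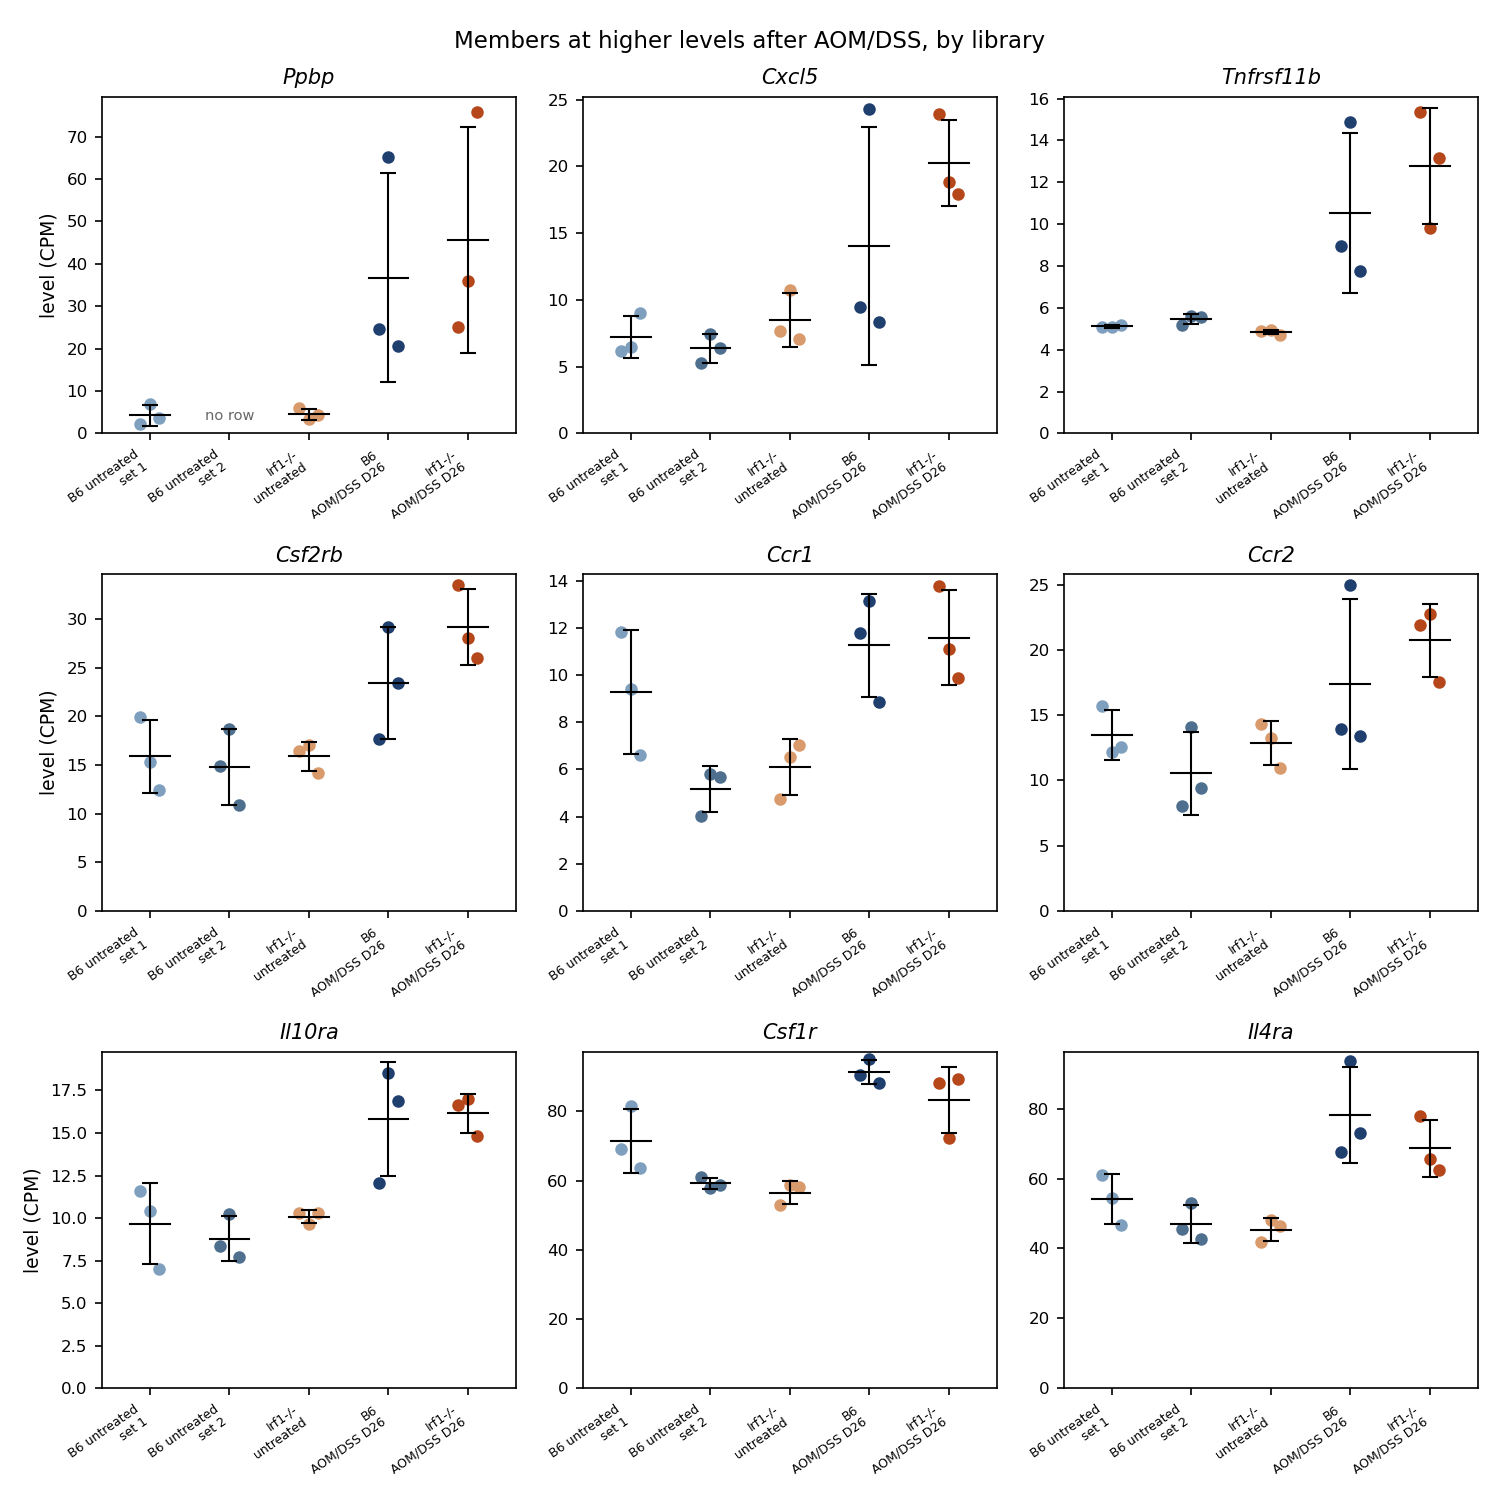
Levels (CPM, linear axis from 0) by library of 9 members that were higher after AOM/DSS in mutants at an adjusted p under 0.05; points are mice, the line is the mean and the bars are the SD of 3 mice, and Ppbp has no row in the table of B6 set 2. In each panel the 3 treated mutants lie above the 3 untreated ones, while treated B6 mice overlap untreated mice of set 1 for Cxcl5, Csf2rb, Ccr1 and Ccr2.

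In B6 mice 6 of 77 members were higher (7.79%) and 3 lower (3.9%) after treatment at an adjusted p under 0.05, where 3.95% and 4.52% of all 12643 genes were. Without the genes that met the minimum of the table through 1 group alone, 5 of 76 members were higher (6.58%), where 3.71% of 12548 genes were. No member was called (edgeR's quasi-likelihood test; 0.0316% of all genes were upregulated and 0.0158% downregulated), and 19 members were higher and 10 lower at an unadjusted p under 0.05, against 14.7% and 14.8% of all genes. DESeq2 called 5 members and edgeR's exact test 4, beside 3.49% and 3.64% of all genes. Over all 77 members, 47 had a positive and 30 a negative log2 FC, against 51.8% and 48.2% of all genes. The members higher were Cxcl14, Ppbp, Ccl8, Tnfrsf11b, Tnfrsf1b and Il4ra, and the members lower were Il18, Il15 and Il2ra. Ppbp was at 2.25, 6.92 and 3.64 CPM in set 1 and 24.6, 65.2 and 20.5 CPM in treated mice (log2 FC 3.11, SE 0.51, adjusted p = 0.0194). Ccl8, a monocyte chemokine, went from 3.74, 3.61 and 3.46 CPM to 7.12, 19.2 and 14.5 CPM (log2 FC 1.92), and had entered the table through treated mice alone, so that its direction was fixed. Cxcl14, a chemokine of epithelium and skin, went from 13.5, 11.6 and 12.2 CPM to 19.9, 22.9 and 29.8 CPM (0.97, SE 0.16, adjusted p = 0.0194). Keratins of squamous epithelium moved in the same libraries: 9 of the 10 listed markers were present, with a summed level of 404 to 780 CPM in set 1 and 731 to 1217 CPM in treated B6 mice, and Krt5, Krt14 and Krt6a passed an adjusted p of 0.05. Their part in the level of Cxcl14 was not tested. Tnfrsf11b went from 5.11, 5.07 and 5.19 CPM to 8.96, 14.9 and 7.74 CPM (1.05, SE 0.24, adjusted p = 0.0365). The macrophage and monocyte markers were at 426 to 565 CPM in set 1 and 571 to 782 CPM in treated B6 mice. Of these markers, 9 of 10 had a positive log2 FC (median 0.44) and none passed an adjusted p of 0.05. Between treated mice, 8 of 10 were lower and 2 higher in mutants than in B6 mice (median -0.25), none past an adjusted p of 0.05.

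Of the 10 interleukins and soluble inhibitors tested in B6 mice, 2 had a positive log2 FC against set 1, with a median of -0.26 beside 0.01 over all genes. Against set 2, 5 of 10 had a positive log2 FC, with a median of -0.012. Their summed level was 336 ± 21.1 CPM in set 1, 273 ± 18.8 CPM in set 2 and 261 ± 18.2 CPM in treated B6 mice. Il18 was at 137, 147 and 119 CPM in set 1 and 107, 75.5 and 90 CPM in treated mice, and fell by 0.56 on the log2 scale (SE 0.13, adjusted p = 0.0379). Against set 2, the log2 FC was -0.18 for Il18 (adjusted p = 0.351) and -0.22 for Il15 (adjusted p = 0.219). Il15 was at 18.1, 21.8 and 20.4 CPM and then 15.5, 13.6 and 14 CPM (-0.48, SE 0.12, adjusted p = 0.0408). Il2ra was at 31.2 ± 2.02 and then 24 ± 1.25 CPM (-0.37, SE 0.09, adjusted p = 0.0443). All 3 were lower in every treated mouse than in every mouse of set 1, as were 18.1% of all genes. With the GC correction only 4 members kept an adjusted p under 0.05, all of them higher (Ppbp, Tnfrsf11b and Cxcl14, and Ccl8, whose direction was fixed). With log2 Xist as a covariate 1 did (Cxcl14). Of all genes, 1.04% passed 0.05 with the GC correction and 0.127% with the covariate.

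The count in B6 mice rested on the untreated mice chosen. Against set 2 in place of set 1, whose shared table holds neither Ppbp nor Ccl8, 20 members passed an adjusted p of 0.05, 16 of them higher, and against both sets together 27 did, 19 of them higher, where 14.8% and 23.2% of all genes passed in either direction. Csf1r was at 90.5, 95.1 and 88.3 CPM in treated B6 mice, at 69, 81.5 and 63.7 CPM in set 1 and at 61, 57.8 and 58.8 CPM in set 2. Its log2 FC was 0.36 (SE 0.10, adjusted p = 0.0543) against set 1 and 0.64 (adjusted p = 0.00753) against set 2. Ccr1 (1.13, adjusted p = 0.013), Cx3cr1 (0.81, adjusted p = 0.0162) and Il10ra (0.86, adjusted p = 0.0211) were higher and Cxcr2 (-0.50, adjusted p = 0.0168) was lower than in set 2. Without single mice, the count against set 1 ranged from 0 (without replicate 1 or 3 of set 1) to 19 (without replicate 1 of the treated mice), and was 1 without replicate 2 of set 1 and 6 and 2 without replicates 2 and 3 of the treated mice. Of all genes, 12.1% passed without replicate 1 of the treated mice and 0.127% without replicate 3 of set 1.

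The responses of both genotypes, which share no library, were set side by side for the 74 members tested in each. Ppbp, Tnfrsf11b, Tnfrsf1b, Il4ra and Il2ra passed an adjusted p of 0.05 in both, which is 5 of the 9 of B6 mice (55.6%) and 5 of the 15 of mutants (33.3%); Tnfrsf11b is among them although its direction in mutants was fixed by the minimum of the table. All 15 of the mutants had the same sign in B6 mice, and so had the 8 of B6 mice that were tested in mutants. Over all 74 members, 58 had the same sign (Spearman's rho 0.7 and Pearson's r 0.841 across genes, which are not independent, each log2 FC sharing its libraries with all others). Pearson's r includes Ppbp, which had the largest log2 FC in both genotypes. Shared signs and correlations were not computed over all genes, so they are not shown to be particular to the members.

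**Figure D4:**
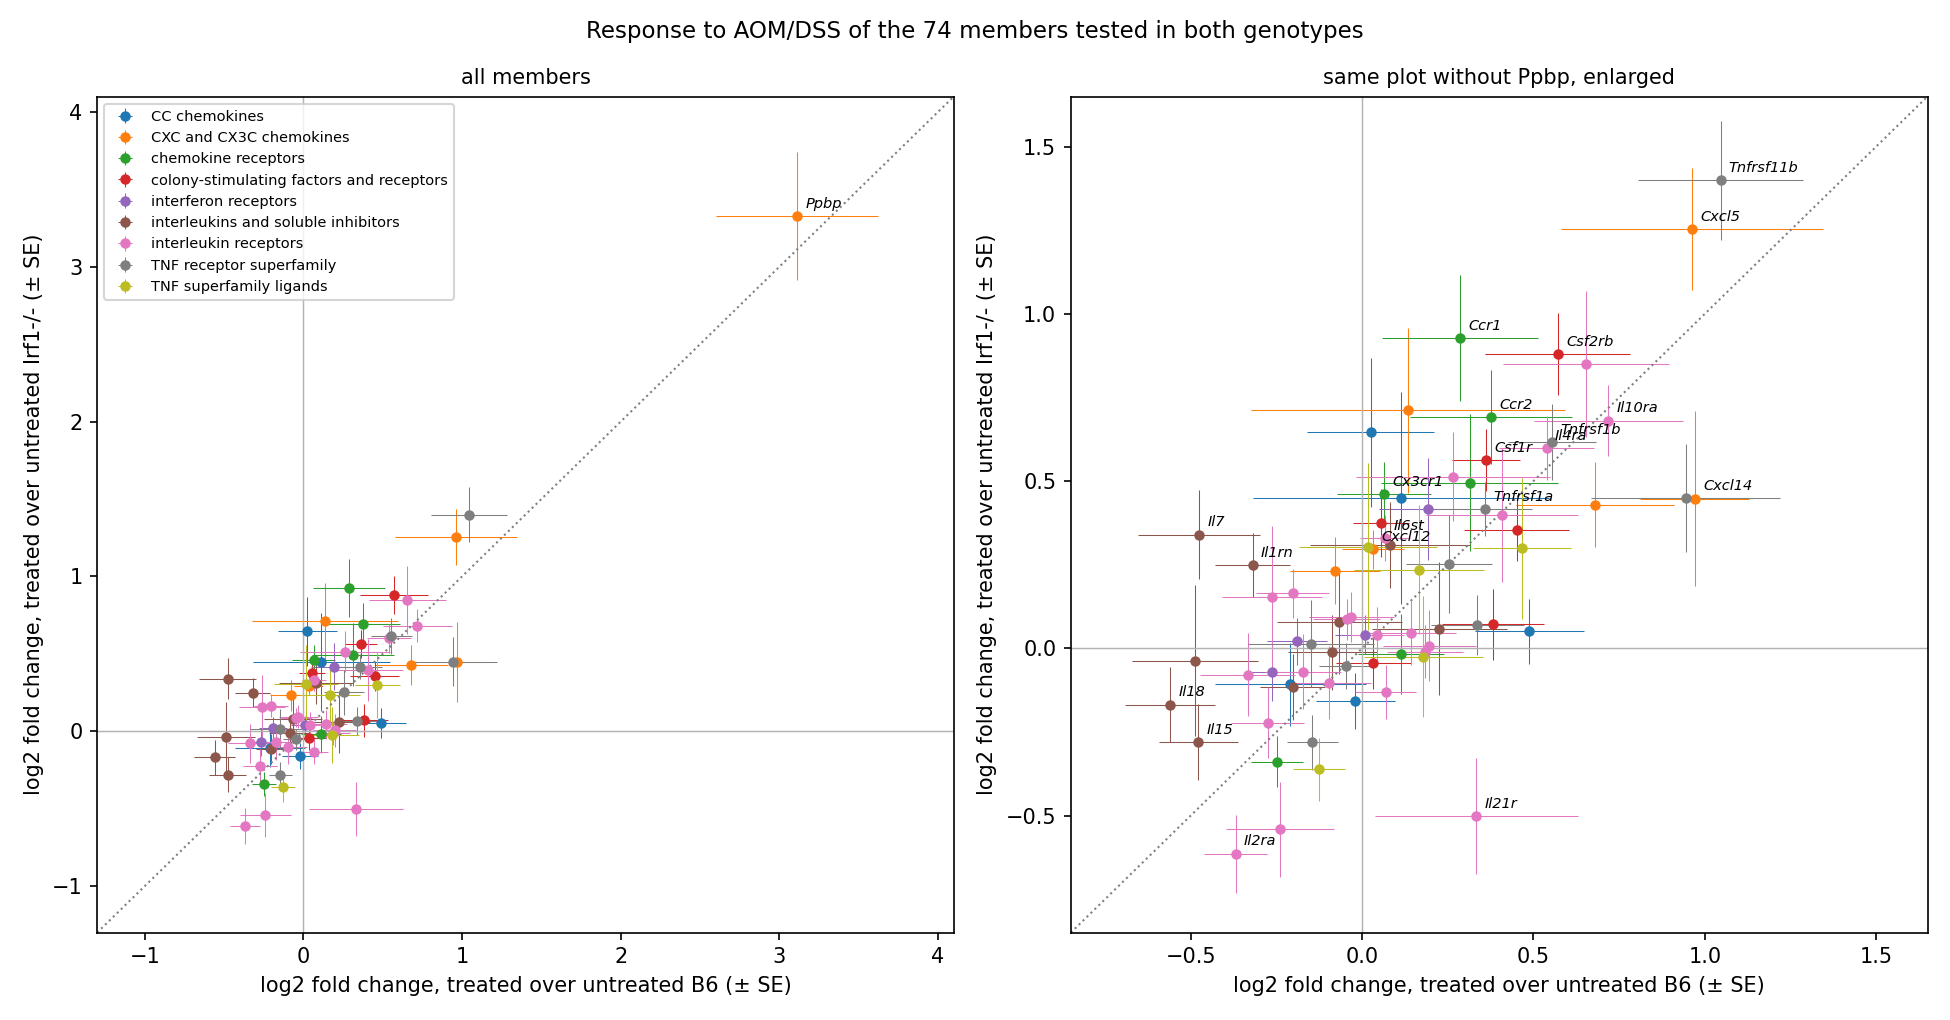
The log2 FC of treated over untreated mice in mutants (vertical) against B6 mice with set 1 as controls (horizontal) for the 74 members tested in both, with standard errors as bars and roles as colours; the right panel enlarges the left one without Ppbp, and the dotted line marks equal responses. Ppbp, Tnfrsf11b and Cxcl5 lie at the upper right, and Il7 and Il1rn to the upper left, higher in mutants and lower in B6 mice.

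The difference between the responses was tested as an interaction of genotype and treatment. No member was called and none reached an adjusted p under 0.05 (edgeR's quasi-likelihood test; 0.016% of 12483 genes were called with a larger and 0% with a smaller response in mutants). At an unadjusted p under 0.05 there were 7 members with a larger and 1 with a smaller log2 FC in mutants (9.46% and 1.35%, against 9.65% and 7.23% of all genes), DESeq2 called 0 members, and 2, Il7 and Il1rn, had an adjusted p under 0.05 in DESeq2 (0.0319 and 0.0348). Over all 74 members, 48 had a positive and 26 a negative difference, against 51.9% and 48.1% of all genes. Among the members that rose in mutants, the difference was 0.22 (SE 0.75) for Ppbp, 0.30 (SE 0.48) for Cxcl5, 0.07 (SE 0.19) for Tnfrsf1b, 0.36 (SE 0.32) for Tnfrsf11b and 0.21 (SE 0.14) for Csf1r on the log2 scale. It was largest relative to its error for Il6st (0.27, SE 0.09, adjusted p = 0.183), Cxcl12 (0.27, SE 0.10, adjusted p = 0.216), Cx3cr1 (0.40, SE 0.17, adjusted p = 0.256) and Ccr1 (0.65, SE 0.32, adjusted p = 0.323). These values do not show equal responses.

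Il7 had the smallest p. It was at 9.33, 12.3 and 11.2 CPM in set 1 and 6.28, 9 and 8.22 CPM in treated B6 mice, and at 7.42, 8.41 and 6.97 CPM in untreated and 9.44, 9.07 and 10.3 CPM in treated mutants. Its level was lower in all treated B6 mice than in all mice of set 1, as for 18.1% of all genes. It was higher in all treated mutants than in all untreated ones, as for 12.2% of all genes. The log2 difference of the responses was 0.82 (SE 0.22, adjusted p = 0.112 in edgeR's quasi-likelihood test). Set 2 held 7.67, 10.2 and 7.01 CPM, within the range of the treated B6 mice but for 1 mouse, and with it as controls the difference was 0.42 (SE 0.24, adjusted p = 0.43). Il1rn was at 75.3, 74.4 and 73.7 CPM in set 1, 68.7, 59.2 and 50.2 CPM in treated B6 mice, 73.3, 67.6 and 65.7 CPM in untreated and 90.1, 84.4 and 70.6 CPM in treated mutants (difference 0.57, SE 0.15, adjusted p = 0.112). In set 2, however, it was at 56.4, 55.9 and 56.9 CPM.

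**Figure D5:**
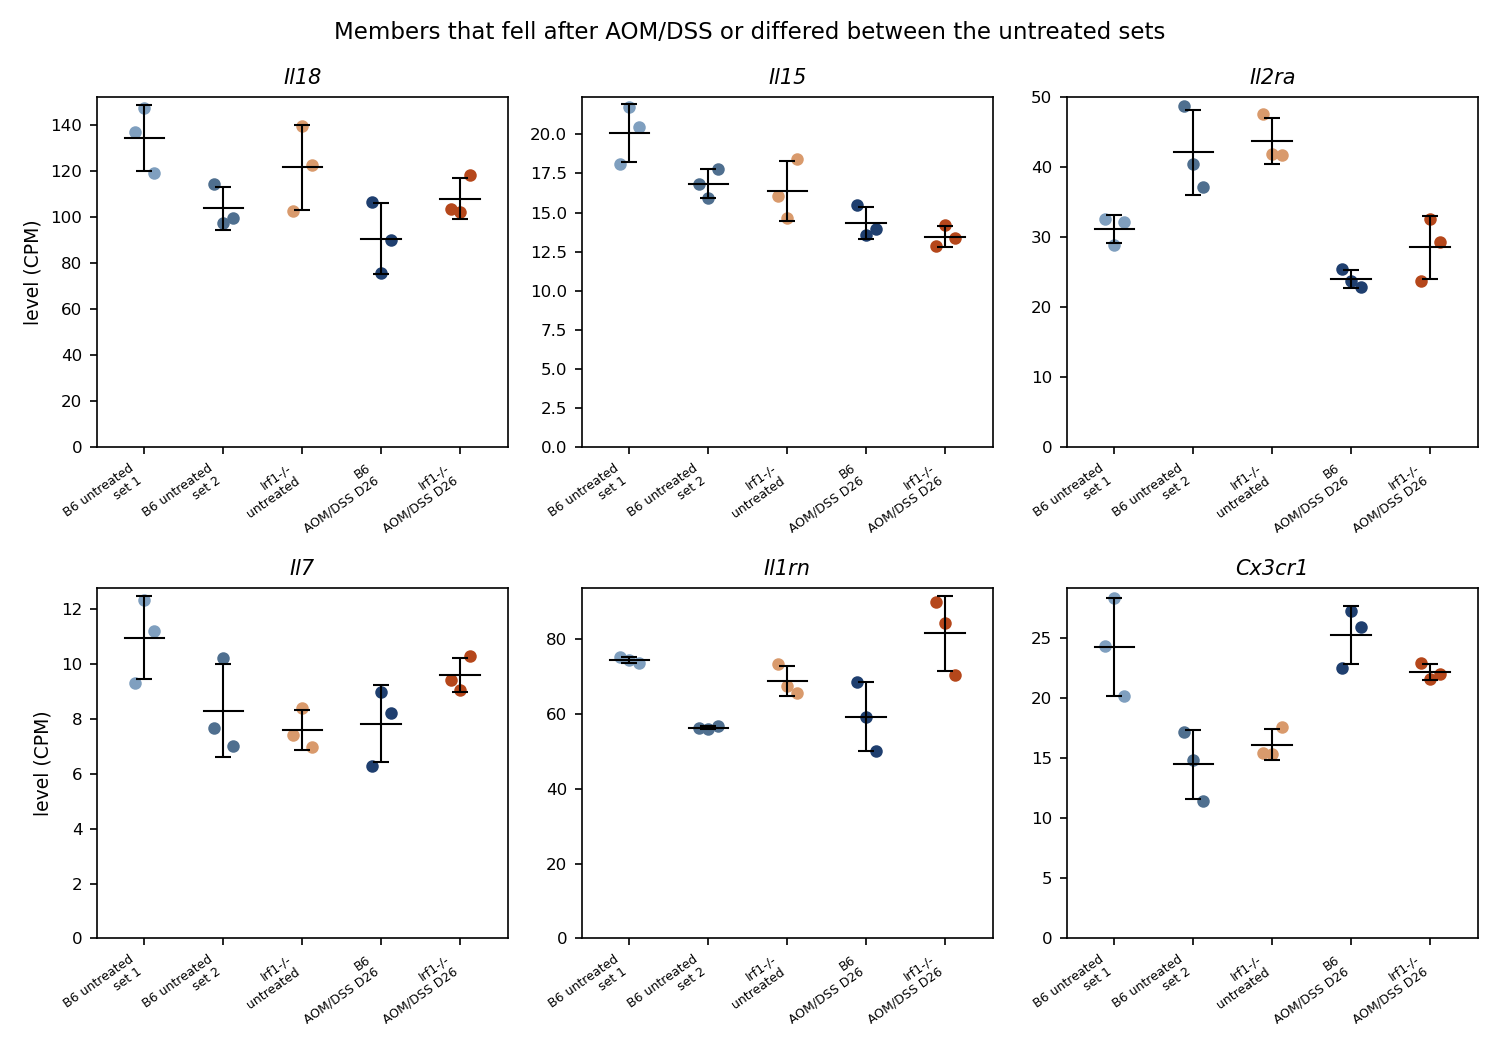
Levels (CPM, linear axis from 0) by library of Il18, Il15, Il2ra, Il7, Il1rn and Cx3cr1; points are mice, the line is the mean and the bars are the SD of 3 mice. For Il18, Il15, Il2ra, Il1rn and Cx3cr1 the untreated B6 mice of set 1 and set 2 do not overlap, while for Il7 they do.

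The 2 sets of untreated B6 mice were compared to show how far members vary between mice that the labels describe alike. No member was called (edgeR's quasi-likelihood test; 0.0242% of 12417 genes were upregulated and 0.0403% downregulated in set 2), and DESeq2 and edgeR's exact test called 2 each, beside 1.16% and 1.3% of all genes. At an unadjusted p under 0.05, 9 members were higher and 14 lower, against 9.11% and 8.08% of all genes. Il1rn (log2 FC of set 2 over set 1 -0.40, SE 0.06, adjusted p = 0.0282) and Tnfrsf12a (0.89, SE 0.16, adjusted p = 0.0406) passed an adjusted p of 0.05, 1 in each direction (0.403% and 0.169% of all genes). Tnfrsf12a was at 7.92, 7.62 and 7.19 CPM in set 1 and 14.8, 11.2 and 16.2 CPM in set 2. Cx3cr1 was at 24.3, 28.3 and 20.1 CPM in set 1 and 17.1, 14.8 and 11.4 CPM in set 2 (-0.74, SE 0.16, adjusted p = 0.0709). Of the 72 members tested, 46 were lower in set 2 (median log2 FC -0.11 beside 0.00 over all genes), and 11 were lower and 9 higher without overlap (15.3% and 12.5%, against 11% and 10.4% of all genes). The macrophage and monocyte markers were at 426 to 565 CPM in set 1 and 432 to 471 CPM in set 2, with 10 of 10 lower in set 2, and the B cell markers at 40 to 159 and 30 to 83 CPM, with 7 of 7 lower.

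Of 74 further genes of cytokine signalling that are not members, such as adaptors and kinases downstream of the receptors, NF-kB genes, and ligands and receptors under other names, 45 to 47 were tested per comparison and none was called. Kitl (stem cell factor, log2 FC -0.56, adjusted p = 0.0262) and the nerve growth factor receptor Ngfr (-0.52, adjusted p = 0.0278) were lower in treated than in untreated B6 mice, and Osmr, the oncostatin M receptor that pairs with Il6st, was higher in treated than in untreated mutants (0.77, SE 0.10, adjusted p = 0.0106). No gene of this list passed an adjusted p of 0.05 between genotypes or between the control sets.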

How the data were processed

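RNA-seq of distal colons (50 bp reads, HiSeq 2500) came as 3 tables of 6 libraries each. The authors deposited raw read counts per gene beside their own CPM values, and every gene in a table reached about 5 CPM in at least 3 of its libraries. The submitters' processing notes name TopHat2 2.0.9, Bowtie 1.0.0, featureCounts, edgeR and mm9. The 18 count columns were used. The 36 other per-sample columns (CPM and log CPM) and the authors' fold changes and p-values were not used. Samples were grouped by GEO's labels.

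Counts were tested with edgeR 4.0.16 (R 4.3.3, quasi-likelihood test, TMM scaling, Benjamini-Hochberg adjustment over all genes tested) in 6 comparisons, each fitted on the libraries it concerns. Calls needed a fold change of 1.5 or more at an adjusted p below 0.01, and an adjusted p under 0.05 was counted beside it. Named members were drawn from those past either threshold, the 3 with the smallest p in each direction of a comparison, the highest and lowest of each role, and those of the Irf1 and neutrophil lists. Genes shown for a marker list or beside such a member were chosen after their values were seen. The members and lists were chosen with earlier results of these data known. Alternatives were DESeq2 1.42.0, edgeR's exact test, RLE size factors, 1 fit of all 15 libraries, a replicate block, a minimum of 10 CPM, a GC correction (lowess, span 0.3), other B6 controls, and each library left out; a covariate of log2 Xist was chosen after seeing the data. The quasi-likelihood fit was tested on simulated counts for the steady-state genotype comparison and the difference of responses. The other comparisons and the alternatives were not tested in this way. With 22266607 to 22869853 counted reads per library, p-values measure the spread between 3 mice per group.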

Additional observations from a re-analysis of the deposited data

Results flagged for a closer look

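With set 1 as B6 controls, Il7, a growth factor of lymphocytes, moved in opposite directions in the 2 genotypes. All 3 treated B6 mice were below all 3 untreated B6 mice of set 1, and all 3 treated mutants were above all 3 untreated mutants. Il7 was flagged because of this pattern, so the separation adds no support. Of all genes, 18.1% were lower without overlap in B6 mice and 12.2% higher without overlap in mutants. The share of all genes with opposite separations in both genotypes was not computed. Treated B6 mice (6.28 to 9 CPM) overlapped those of set 2 (7.01 to 10.2 CPM). The difference of the log2 responses was 0.82 (SE 0.22, adjusted p = 0.112 in edgeR's quasi-likelihood test), and it was 0.42 with set 2 as controls and 0.55 with the GC correction, neither past an adjusted p of 0.05.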

How the results depend on the processing

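Of 809 alternatives for 50 single members, 734 kept the direction and the side of the call, 50 gained the call, 21 lost it and 4 changed sign. Against an adjusted p of 0.05, at which most named members stand, 30 passed and 285 of their 461 alternatives kept this while 176 lost it, and 36 of 348 alternatives of the other 20 passed it. The changes of sign were in Il1rn (-0.12) and Tnfrsf12a (0.36) at steady state against set 1, and the differences of responses of Il21r (0.037) and Tnfsf10 (0.0072) with set 2. The cause was not tested for any of these or for the following changes.

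At steady state, the 1 member called became 0 with the GC correction and with log2 Xist (0 to 1 without single mice). The 2 members at an adjusted p under 0.05 became 4 in the exact test, 1 in the fit of all 15 libraries and 12 against set 1 (1 to 3 without single mice). Of all genes, 2.79%, 0.833% and 5.46% passed 0.05 in the same order. In treated mice, the 1 called became 3 in DESeq2 and the exact test and 2 in the fit of all libraries and at an adjusted p under 0.05 (0 to 1). Of all genes, 2.16%, 2.14%, 1.94% and 1.47% were called in the same order. The 2 at 0.05 became 7, 6 and 6 in DESeq2, the exact test and the fit of all libraries (1 to 3). Of all genes, 7.21%, 7.32% and 14% passed 0.05 in these fits.

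For the B6 response, the 0 called became 5 in DESeq2, 4 in the exact test and at an adjusted p under 0.05, 1 in the fit of all libraries and against set 2, and 3 against both sets (0 to 2). Of all genes, 3.49%, 3.64%, 3.4%, 2.4%, 0.572% and 2.42% were called in the same order. The 9 members at 0.05 became 16, 15 and 18 in DESeq2, the exact test and the fit of all libraries, 4 with the GC correction, 1 with log2 Xist, and 20 and 27 against set 2 and both sets (0 to 19). Of all genes, 14.3%, 14.7%, 19%, 1.04%, 0.127%, 14.8% and 23.2% passed 0.05 in the same order. For the mutant response, the 1 called became 11 in DESeq2 and the exact test, 10 at an adjusted p under 0.05, and 0 with a minimum of 10 CPM or the GC correction (0 to 2). Of all genes, 1.74%, 1.96%, 1.33%, 0.119% and 0.27% were called in the same order. The 15 at 0.05 became 23 and 24 in DESeq2 and the exact test and 7 with log2 Xist (0 to 18). Of all genes, 6.36%, 6.82% and 1.4% passed 0.05 in these fits. Between control sets, the 0 called became 2 in DESeq2 and the exact test and 1 at an adjusted p under 0.05. Of all genes, 1.16%, 1.3% and 0.411% were called in the same order. For the difference of responses, no alternative called a member, and the exact test, which takes 2 groups, was not run. A run without the 5 CPM minimum was not possible, since the tables hold no gene below it.

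The labels number the mice of each group, and deviations of same-numbered libraries correlated between 0.00105 and 0.0569 at steady state, -0.131 and -0.115 in B6, -0.046 and 0.251 in mutants, and -0.224 and 0.187 in treated mice, so the numbers were not taken as pairs. With the replicate block, called members were 0 at steady state, 0 in treated mice, 1 in the B6 response and 3 in the mutant response, and 1 member was at an adjusted p under 0.05 in the B6 response. Of all genes, 0.35%, 0.0561%, 0.0395% and 0.378% were called in the same order, and 0.482% passed 0.05 in the B6 response. With the GC correction and the block together, called members were 0, 0, 1 and 4 in the same order, and 1 member was at 0.05 in the B6 response and 1 in treated mice. Of all genes, 0.377%, 0.0323%, 0.0159% and 0.524% were called, and 0.0718% and 0.412% passed 0.05 in the B6 response and in treated mice.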
